A study of Mus musculus with 12 samples.

Results

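The genes described here are 10 components of bone morphogenetic protein (BMP) signalling, chosen by their gene symbol among the 15557 protein-coding genes measured in dermal papilla (DP) cells of the mouse hair follicle. They comprise 5 ligands (Bmp2, Bmp3, Bmp4, Bmp6 and Bmp7) and 5 antagonists (Nog, Grem1, Fst, Bambi and Chrdl1), and all 10 are present in the tables of both days. Each had at least 275 and at most 12207 reads in a library, so all 10 passed the filter on low values.

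RNA of YFP-positive cells that had passed 2 rounds of FACS from whole skin was sequenced from 4 groups of 3 mice: control and dMF1/2 mice at postnatal day 14 (P14), and the same genotypes at P16, both in the growth phase (anagen) of the first hair cycle. The dMF1/2 mice carried Corin-cre, which drives Cre recombinase in the DP, and were homozygous for floxed alleles of the FGF receptor genes Fgfr1 and Fgfr2. The labels call the controls wild type, whereas the study's methods list Corin-cre mice heterozygous for both floxed alleles, or floxed mice without Cre. A Cre-dependent YFP reporter at ROSA26 was present in both genotypes, so that sorting on YFP requires Cre in the controls as well. Of the control genotypes listed, only the Corin-cre heterozygotes carry Cre, so sorted control cells may lack a copy of each receptor gene. The comparisons ask which BMP components differ between dMF1/2 and control mice, and which change between the days in each genotype.

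BMPs are secreted dimers of the TGF-beta superfamily that bind type I and type II serine/threonine kinase receptors, upon which Smad1, Smad5 and Smad8 are phosphorylated and enter the nucleus with Smad4. Extracellular antagonists such as Noggin and Gremlin hold the ligands away from their receptors, and their balance with the ligands is known to set the activity of hair follicle stem cells and the differentiation of the hair shaft. The DP, a cluster of mesenchymal cells at the base of the follicle, is a source of both.

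On the GRCm38 (mm10) assembly used by the tables, the ligand genes are Bmp2 (ENSMUSG00000027358, chromosome 2, 133552159 to 133562885, plus strand), Bmp3 (ENSMUSG00000029335, chromosome 5, 98854415 to 98884396, plus), Bmp4 (ENSMUSG00000021835, chromosome 14, 46383520 to 46390669, minus), Bmp6 (ENSMUSG00000039004, chromosome 13, 38345716 to 38499728, plus) and Bmp7 (ENSMUSG00000008999, chromosome 2, 172868012 to 172940321, minus). The antagonist genes are Nog (ENSMUSG00000048616, chromosome 11, 89300638 to 89302332, minus), Grem1 (ENSMUSG00000074934, chromosome 2, 113746164 to 113758646, minus), Fst (ENSMUSG00000021765, chromosome 13, 114452262 to 114458730, minus), Bambi (ENSMUSG00000024232) and Chrdl1 (ENSMUSG00000031283, chromosome X, 143285674 to 143394262, minus). No pair of members overlaps, and all values are sums over the exons of the whole gene.

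Promoter sequence from RefSeq (GRCm38.p6) was matched for 3 of the 10 members, Bmp4, Bmp6 and Grem1. The 250 bases before the start of Bmp6 (chr13:38345466-38345715, plus strand) and of Bmp4 (chr14:46390670-46390919, minus strand) are shown because Bmp6 was called between the genotypes at P16 and Bmp4 was not. GENCODE M21, used here for exon lengths, starts Bmp6 earlier, at 38345107, so this window lies upstream of the start in the deposited tables but inside the GENCODE span. Both are written 5′ to 3′, and capitals mark GGGCGG (a GC box) or CCGGAAG (an ETS-type motif) on either strand:
Bmp6: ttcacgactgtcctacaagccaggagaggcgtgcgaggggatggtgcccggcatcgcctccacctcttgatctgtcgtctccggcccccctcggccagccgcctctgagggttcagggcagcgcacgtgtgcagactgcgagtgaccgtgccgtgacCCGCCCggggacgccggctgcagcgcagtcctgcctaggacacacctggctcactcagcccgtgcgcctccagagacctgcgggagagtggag
Bmp4: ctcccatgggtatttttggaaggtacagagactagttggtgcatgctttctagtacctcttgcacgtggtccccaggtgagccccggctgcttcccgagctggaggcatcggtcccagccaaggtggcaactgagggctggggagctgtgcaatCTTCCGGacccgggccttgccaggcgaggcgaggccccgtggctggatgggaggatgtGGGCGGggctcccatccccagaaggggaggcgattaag

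Each of the 2 windows held 1 GC box, a motif found in 32.7% of the 32851 RefSeq mouse promoters of the same length. Bmp4 alone of the pair held the ETS-type motif, which 6.91% of promoters hold. Neither held the palindrome GGCGCC (9.59% of promoters) or the TATA box TATAAA (12.4%). None of the motifs overlapped another in these windows. Both were rich in G and C, with 68.8% for Bmp6 and 63.2% for Bmp4, against a median of 52.4% over all promoters. The window of Grem1, which was not called at P16 either, is not printed. It held 3 GC boxes and 1 palindrome GGCGCC.

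The libraries held 19302358 to 29860750 reads in protein-coding genes (median 23062179.5). All 14 DP markers were present in every group, and their summed level ran from 552 to 2423 RPKM (reads scaled to the length of a gene's exons and to the size of the library). Summed markers of keratinocytes (4.6 to 21.5), melanocytes (4.38 to 7.10), endothelium (4.67 to 14.9) and immune cells (2.23 to 4.0) were far lower, while those of the dermal sheath, the neighbouring mesenchyme, reached 254 to 687 and those of dermal fibroblasts, a list with Col1a1 and Col3a1, which DP cells also express, ran from 18495 to 36251. Replicate 1 of both genotypes at P14 stood apart, with fibroblast sums of 18495 and 21602 against 35191 to 36251 in the other P14 libraries, and DP sums of 2423 and 2000 against 929 to 1370. RPKM values are shares of a library's reads, so the fibroblast and DP sums of a library are not independent of each other. P16 control replicate 1 had the lowest DP sum of all. Of the targeted genes, Fgfr1 was 0.76-fold of control at P14 and 0.71-fold at P16, without overlap of the genotypes on either day, but did not pass the test (limma's adjusted p = 0.501 and 0.130). Fgfr2 was 0.93-fold and 0.99-fold of control, as fold changes on the log2 scale of limma, and was not called either. These values sum reads over the whole gene, floxed part or not, so they do not check the deletion, and genotypes are given as labelled.

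Expressed per length, as mean RPKM with the SD of 3 mice, 3 of the 5 ligands led the order in control DP on both days. At P14, Bmp7 (76.2 ± 32.1), Bmp3 (64.5 ± 18.3) and Bmp4 (63.9 ± 17.2) led in control mice, and Nog (38.6 ± 20.4) was the highest antagonist, ahead of Bmp2 (34.6 ± 14.2). Bambi (23.2 ± 9.67), Bmp6 (19.1 ± 8.0), Grem1 (17.0 ± 10.9), Fst (11.8 ± 4.13) and Chrdl1 (6.0 ± 1.37) followed. In RPKM each neighbouring pair in this order overlapped in range over the mice. Within each of the 3 mice, however, Bmp4 was above Nog, Bmp2 above Bambi and Fst above Chrdl1, while the other neighbours kept their order in 2 of 3 mice. RPKM divides by all reads of a library, and the spread over the mice depends on that scale. Bmp4, for example, had 83.5, 51.3 and 56.9 RPKM in control replicates 1 to 3 but 3376, 2849 and 3223 normalized reads.

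In P16 control mice, Bmp4 (64.9 ± 2.46), Bmp7 (62.3 ± 7.12) and Bmp3 (45.2 ± 17.8) still led, but Nog had moved below Grem1, Bmp2 and Bambi. Grem1 (25.1 ± 9.14) was now the highest antagonist, and Nog stood at 9.59 ± 3.61, Bmp6 at 5.58 ± 1.39, Fst at 5.08 ± 0.787 and Chrdl1 at 4.69 ± 1.67. In RPKM, neighbouring ranges lay apart only between Bmp2 (22.7 ± 7.51) and Bambi (11.9 ± 3.59). In this group the lowest Bmp2 value was 14.9 and the highest Bambi value 14.6.

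In dMF1/2 mice Bmp3 had left the leading positions. At P14 the order was led by Bmp4 (60.7 ± 18.1), Bmp7 (60.0 ± 32.8) and Nog (50.9 ± 31.0), then Bmp6 (31.3 ± 4.74), and Bmp3 stood at 19.3 ± 7.69. At P16 it was led by Bmp7 (81.9 ± 21.6) and Bmp4 (61.5 ± 14.6), followed by Nog (30.8 ± 6.81), Grem1 (26.4 ± 5.52) and Bambi (25.3 ± 6.94), and Bmp3 stood at 20.6 ± 4.71. Chrdl1 was the lowest member in all 4 groups.

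**Figure D1:**
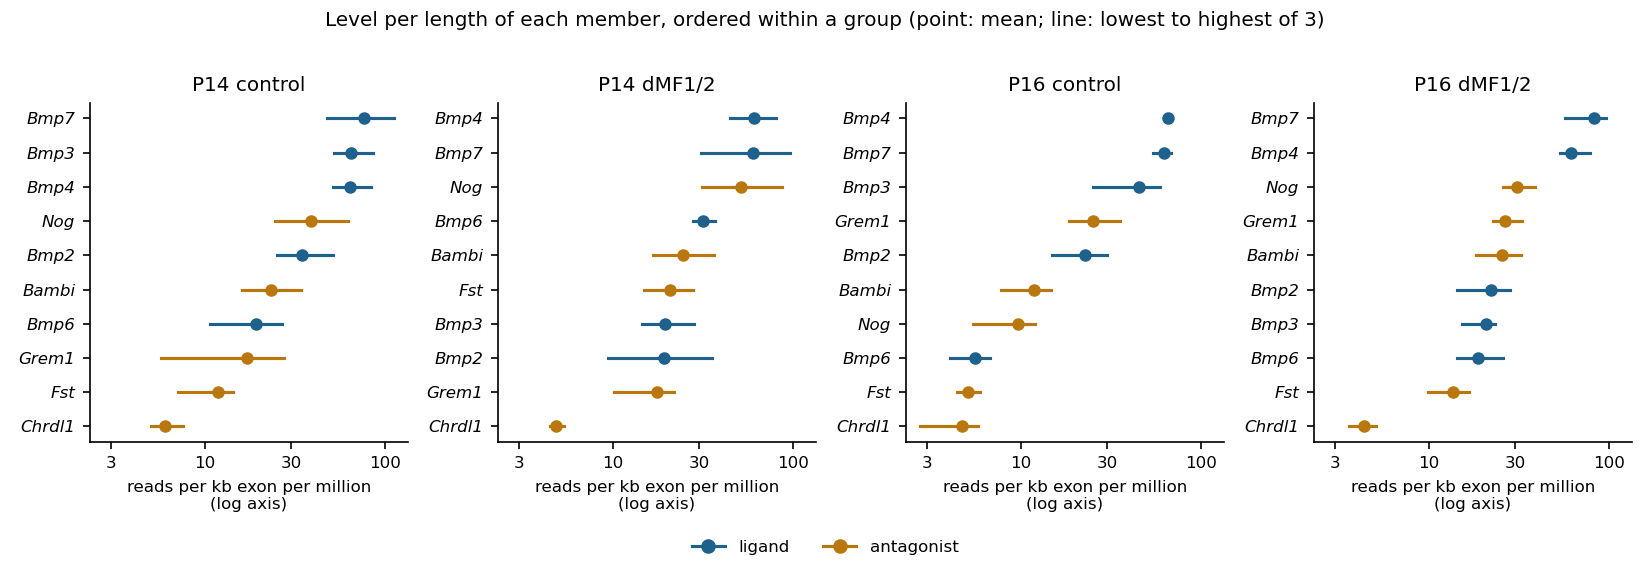
Level of each member in RPKM (reads scaled to exon length and library size, log axis), ordered from highest to lowest within each of the 4 groups; the point is the mean of 3 mice and the line runs from the lowest to the highest. Bmp4 and Bmp7 are among the 3 highest in all groups, while Bmp3 falls from the upper 3 in control to position 7 in dMF1/2 mice on both days.

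At P14 the genotypes differed in 1 member. Bmp3, an atypical ligand known for opposing other BMPs in bone, was lower in dMF1/2 mice, and none of the 5 antagonists passed the test (1 of 5, Fst, at an unadjusted p under 0.05, and 0 by edgeR or DESeq2). Over all genes 0.0525% of 13334 were called at P14, in either direction, so that 1 of 10 stands against a background of 7 genes in all. With the replicate number as a block, 3 of 10 members were called (Bmp2, Bmp3 and Bmp6), against 1.68% of all genes in the same fit. In bulk samples of this kind, fewer cells of a type and less RNA per cell cannot be told apart.

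Bmp3 had 11372, 9449 and 10471 normalized reads in the P14 control mice (replicates 1 to 3) and 4024, 2653 and 2816 in the P14 dMF1/2 mice. The genotypes did not overlap, and the highest mutant was well below the lowest control. This is a log2 fold change of -1.74 (95% interval -2.15 to -1.34, standard error 0.17, adjusted p = 0.0474 by limma), or 0.30-fold. By edgeR the adjusted p was 0.0513, which ends the call, whereas DESeq2 called it and the adjusted p was 0.00117 with the replicate block. The log2 change lay between -1.93 and -1.63 whichever single library was left out, but the call depends on single libraries: its adjusted p lay between 0.0532 and 0.319 without any one of the 3 control mice or of dMF1/2 replicates 2 and 3, and was 0.0148 without dMF1/2 replicate 1. Without replicate 1 of both genotypes, which stood apart in marker levels, the log2 change was -1.86 (adjusted p = 0.0104).

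Bmp2, a classical ligand closely related to Bmp4, had 3259.8, 2214 and 2475 normalized reads in P14 control mice and 2437, 829 and 1091 in dMF1/2 mice. Replicate 1 was the highest of each genotype, and the groups overlapped through mutant replicate 1. Its log2 fold change of -1.01 (95% interval -1.90 to -0.12) had an adjusted p of 0.608 by limma. Within pairs of the same replicate number the dMF1/2 mouse had 0.75, 0.37 and 0.44 times the control value, and with the replicate number as a block the adjusted p was 0.0382.

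Bmp6, a ligand of the same subgroup as Bmp7, had 1865, 1917 and 1048 normalized reads in P14 control mice and 2762, 2885 and 2673 in dMF1/2 mice. Every mutant was above every control, with little spread among the mutants. The difference on the log2 scale was 0.84 (95% interval 0.30 to 1.37) with an adjusted p of 0.376 by limma, and with the replicate block the adjusted p was 0.0481.

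Fst encodes follistatin, a secreted protein that binds activins and, less tightly, BMPs. It had 1156, 1629.6 and 814 normalized reads in P14 control mice and 2458, 1706 and 2214 in dMF1/2 mice. The groups did not overlap, although control replicate 2 was close to mutant replicate 2, and the difference on the log2 scale was 0.86 (95% interval 0.26 to 1.47) with an adjusted p of 0.439 by limma. Together, Bmp3, Bmp6 and Fst were the 3 of 10 members whose genotypes did not overlap at P14, which was so for 12.7% of all genes tested.

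For the remaining 6 members the genotypes overlapped at P14, and none was called with or without the replicate block. For Bmp4 the log2 fold change was -0.053 (95% interval -0.39 to 0.28), for Bmp7 -0.38 (-1.18 to 0.42), for Nog 0.39 (-0.39 to 1.17), for Bambi 0.098 (-0.43 to 0.62) and for Chrdl1 -0.27 (-0.64 to 0.099). The interval was narrowest for Bmp4 among these 5, while those of Nog and Bmp7 reached beyond a log2 change of 1 in size. Within pairs of the same replicate number, Nog was higher in all 3 dMF1/2 mice (1.5, 1.2 and 1.3 times control, adjusted p = 0.0919 by limma with the block). Bmp7 was lower in all 3 (0.92, 0.65 and 0.76 times, adjusted p = 0.168 with the block). Grem1, a secreted antagonist of the DAN family, was the most variable: it had 428, 1830.0 and 2863 normalized reads in controls and 816, 2172 and 2233 in dMF1/2 mice. Replicate 1 was the lowest of each genotype, and the 95% interval of the log2 change ran from -1.42 to 1.97.

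At P16, 3 of the 5 antagonists (Nog, Fst and Bambi) and 1 of the 5 ligands (Bmp6) were higher in dMF1/2 mice, by 2.1- to 3.2-fold. Called higher were 4 of the 10 members, against 2.18% of the 13457 genes tested, and called lower were 0 of 10, against 2.14% (1 of 10, Bmp3, was lower at an unadjusted p under 0.05 and was called by DESeq2 and not by edgeR). In either direction 4.32% of genes were called. The median log2 change was 1.05 over the 5 antagonists and -0.11 over the 5 ligands, against -0.0043 over all genes tested.

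Nog encodes Noggin, a secreted antagonist that binds BMP2, BMP4 and BMP7 in the extracellular space. It had 240.1, 483 and 473 normalized reads in P16 control mice and 1032, 1211 and 1463 in dMF1/2 mice. All 3 mutants were at more than 2 times the highest control, and the lowest value belonged to control replicate 1. Nog was thus 3.2-fold higher, at a log2 change of 1.68 (95% interval 1.07 to 2.29, adjusted p = 0.0152 by limma), which was 1.35 (adjusted p = 0.00529) without control replicate 1. The call was lost without dMF1/2 replicate 3 (adjusted p = 0.0696).

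Bmp6 had 412, 657 and 543 normalized reads in P16 control mice and 1324, 1613 and 2233 in dMF1/2 mice, and the lowest mutant was about 2 times the highest control. Its rise was 3.2-fold, or 1.67 on the log2 scale (95% interval 1.17 to 2.18, adjusted p = 0.00841 by limma). It was the only member whose P16 call held whichever single library was left out, with adjusted p between 0.0105 and 0.0409.

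Fst had 526, 681 and 527 normalized reads in P16 control mice and 1075, 1678 and 1714 in dMF1/2 mice. The groups lay apart, with mutant replicate 1 nearest to the controls. Fst was 2.5-fold higher (1.34 on the log2 scale, 95% interval 0.90 to 1.78, adjusted p = 0.0109 by limma), and the adjusted p was 0.0512 without control replicate 3 and 0.0511 without dMF1/2 replicate 3.

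Bambi (chromosome 18, 3507957 to 3516404, plus strand) encodes a transmembrane pseudoreceptor that resembles a type I receptor but lacks its kinase domain. It had 1031, 1671 and 1734 normalized reads in P16 control mice and 3060.3, 2351 and 3658 in dMF1/2 mice. The groups did not overlap, and again control replicate 1 was the lowest of all. Bambi was 2.1-fold higher (1.05 on the log2 scale, 95% interval 0.53 to 1.56, adjusted p = 0.0425 by limma), but the call was lost in 4 of the 6 fits without 1 library. In these 4 fits, without control replicates 1 or 3 or without dMF1/2 replicates 1 or 3, the adjusted p was between 0.0521 and 0.141.

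Bmp3 remained below control in every dMF1/2 mouse at P16 but did not pass the test. It had 4841, 10847 and 8990.2 normalized reads in controls and 4095, 2843 and 3871 in dMF1/2 mice, so that control replicate 1 lay just above the mutants while the other two controls were at more than 2 times the highest mutant. On the log2 scale the difference was -1.13 (95% interval -1.78 to -0.48, adjusted p = 0.0668 by limma). Without control replicate 1 it was -1.47 (adjusted p = 0.00619), in a joint fit of the 12 libraries its adjusted p was 0.0362, and by DESeq2 it was 1.6e-04.

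The remaining 5 members showed no called difference at P16. Bmp4 had 3906, 3484 and 3466 normalized reads in controls and 2825, 3028 and 3944 in dMF1/2 mice. Its log2 change was -0.16, with a 95% interval of -0.46 to 0.14. Grem1 had 1989, 3677 and 2071 in controls and 2219, 3436 and 2225 in dMF1/2 mice, with replicate 2 the highest of each genotype and a log2 fold change of 0.054 (-0.54 to 0.65). The log2 fold change was -0.11 for Bmp2 (-0.70 to 0.48), 0.30 for Bmp7 (-0.085 to 0.69) and -0.099 for Chrdl1, a chordin-like secreted antagonist (-0.68 to 0.48). With 5 of 10 members (Bmp3, Bmp6, Nog, Fst and Bambi) the genotypes did not overlap, compared with 24.5% of the genes tested.

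**Figure D2:**
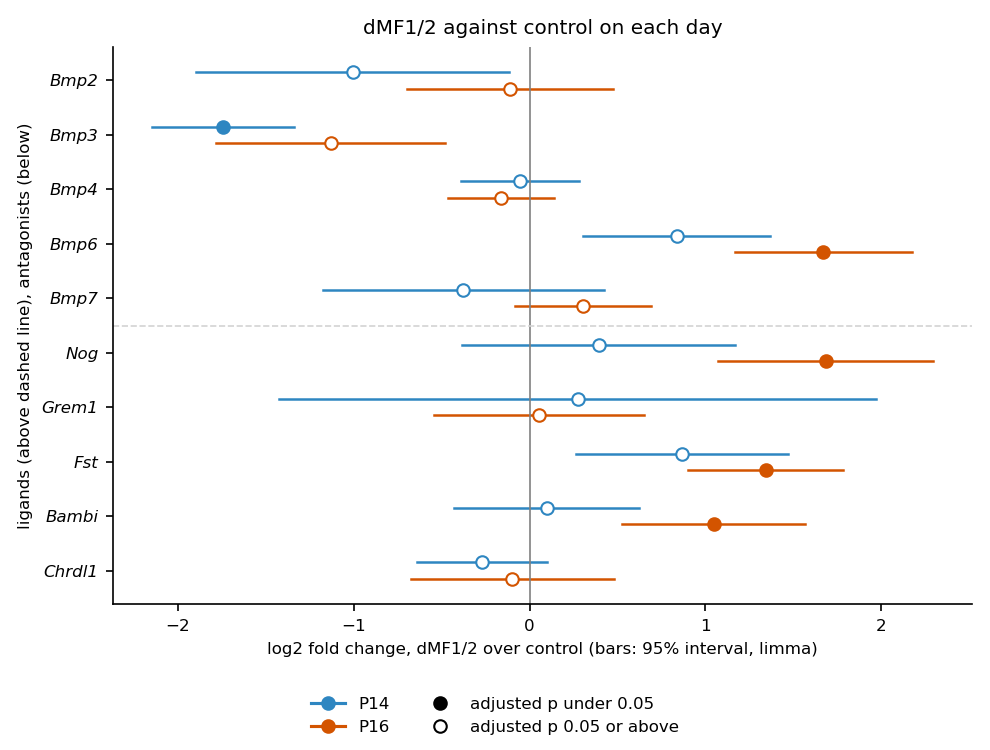
Log2 fold change of dMF1/2 over control for each member at P14 and at P16, with the 95% interval from limma; ligands stand above the dashed line and antagonists below it, and filled points passed an adjusted p of 0.05. At P14 the filled point is Bmp3 at -1.74, and at P16 the filled points are Bmp6, Nog, Fst and Bambi between 1.05 and 1.68.

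DP markers moved with genotype at P16 in the same samples. Their summed level was 552 to 968 RPKM in P16 control and 1023 to 1583 in P16 dMF1/2 mice, without overlap. Of the 14 markers 4 were called by limma (Alpl, Crabp1, Fgf10 and Prom1, with 3 higher and 1 lower), against 4.32% of all genes. By DESeq2 8 were called, against 8.33%, and 12 had an unadjusted p under 0.05 by limma, against 19.0%. The median log2 change of the 14 was 0.91. At P14, 0 of the 14 were called by limma and edgeR, and the median was 0.15. There, 6 had an unadjusted p under 0.05 by limma, against 976 of 13334 genes, and 4 were called by DESeq2, against 207 genes. Of 11 markers of dissociation stress, 1 was called at P16 (Atf3, lower in dMF1/2 mice, also by edgeR and DESeq2), with a list median of -0.31 and sums of 4693 to 6246 RPKM in control and 4086 to 5055 in dMF1/2 mice. Of the 2 adipocyte markers tested 1 was called (Plin1, higher). Sums over the 4 of 7 listed that had P16 values were 2.31 to 4.37 RPKM in control and 3.52 to 5.0 in dMF1/2 mice. The part of these shifts in the higher Nog, Bmp6, Fst and Bambi was not tested. Without P16 control replicate 1, which had the lowest DP sum, 4 members were still called, with Bmp3 now lower and Bambi no longer called.

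From P14 to P16, Nog, Bmp6, Fst and Bambi fell in control mice to 0.28- to 0.56-fold of their P14 level, and none of the 10 members rose (0 also at an unadjusted p under 0.05, and 0 by edgeR and DESeq2). Called as falling were 4 of 10 members, against 8.28% of 13415 genes, while 14.5% of genes changed in either direction. Values for this comparison are reads rescaled over all 12 libraries. It shares the P16 control mice with the genotype comparison above and is not independent of it.

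In control mice Nog fell from 1406 ± 451 to 393 ± 136 normalized reads (SD, n = 3), or by -1.86 on the log2 scale (95% interval -2.60 to -1.12, adjusted p = 0.00684 by limma). The P14 values were 1914, 1249 and 1055 and the P16 values 237, 475 and 468, so the days lay far apart. Bmp6 fell from 1632 ± 495 to 529.8 ± 120.3, or by -1.59 on the log2 scale (95% interval -2.14 to -1.05, adjusted p = 0.00342). Both calls held without any single library and without both P14 replicate 1 libraries (log2 changes of -1.61 for Nog and -1.46 for Bmp6).

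Fst fell from 1216 ± 416 to 569.8 ± 86.6 normalized reads in control mice, or by -1.05 on the log2 scale (adjusted p = 0.0210 by limma). Bambi fell from 2565 ± 550.0 to 1457 ± 383, or by -0.83 (adjusted p = 0.0475). The calls of this pair were the less stable ones: without both P14 replicate 1 libraries the adjusted p was 0.0561 for Fst and 0.107 for Bambi, and in a fit of the control libraries alone 0.0524 and 0.0743. With the replicate number as a block, that of Bambi was 0.0575. Of the 12 fits without 1 library, Fst lost its call in 4 (without P14 control replicates 1 or 2, or P16 control replicates 1 or 3) and Bambi in 8, including every one that left out P14 control replicates 1 or 2 or a P16 control mouse.

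DP markers fell in control mice as well: 6 of 14 were called lower and 0 higher by limma, against 8.28% of all genes called as falling. Of the 14, 11 had an unadjusted p under 0.05 by limma, against 4281 of 13415 genes, and 10 were called by DESeq2. Their median log2 change was -0.92. Of the 11 dissociation stress markers 4 were called higher (Atf3, Dnajb1, Hspa1a and Hspa1b) and 0 lower, with a median of 0.46 and sums of 3597 to 4682 RPKM at P14 and 4693 to 6246 at P16, without overlap. Melanocyte markers had 2 of 4 called higher (Kit and Mitf), with sums of 4.44 to 5.62 and 6.11 to 7.10. Of the 8 endothelial markers 1 was called higher and 1 lower (5 called by edgeR and by DESeq2), with a median of 1.58 and overlapping sums of 7.22 to 14.9 and 4.67 to 12.6. Of the 2 adipocyte markers tested, Plin1 was called lower. The part of these markers in the fall of the 4 members was not tested.

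Of the members that were not called, Bmp2 (-0.48), Bmp3 (-0.46) and Chrdl1 (-0.30) had negative log2 changes and Grem1 a positive one (0.88, 95% interval -0.44 to 2.20). The Grem1 value ran from 0.072 to 1.44 over the fits without 1 library. Bmp4 had 3191 ± 273 normalized reads at P14 and 3566 ± 246 at P16, and the days did not overlap, but its log2 change of 0.16 (-0.16 to 0.48) did not pass the test. Bmp7 was at -0.10 (-0.75 to 0.54).

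In dMF1/2 mice 0 of 10 members changed between the days by limma, against 5.80% of genes, with 2 of 10 (Bmp6 and Fst) at an unadjusted p under 0.05, 1 called by DESeq2 (Bmp6) and 0 by edgeR. Bmp6 had 2801, 2912 and 2698 rescaled reads at P14 and 1295, 1586 and 2191 at P16, and the days did not overlap. Its log2 change was -0.76 (95% interval -1.31 to -0.22, adjusted p = 0.0943 by limma). That adjusted p was 0.0476 without P14 control replicate 3, which enters through the shared fit only.

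Nog had a log2 change of -0.57 in dMF1/2 mice (95% interval -1.31 to 0.17), with 2876, 1489 and 1324 rescaled reads at P14 and 1009, 1191 and 1435 at P16. Mutant replicate 1 at P14 was the only value far from the others, and the days overlapped. Fst was at -0.57 (-1.12 to -0.022, adjusted p = 0.201) and Bambi at 0.11 (-0.44 to 0.66). Bmp2 (0.41), Bmp7 (0.57) and Grem1 (0.66) had positive log2 changes with intervals that include 0.

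**Figure D3:**
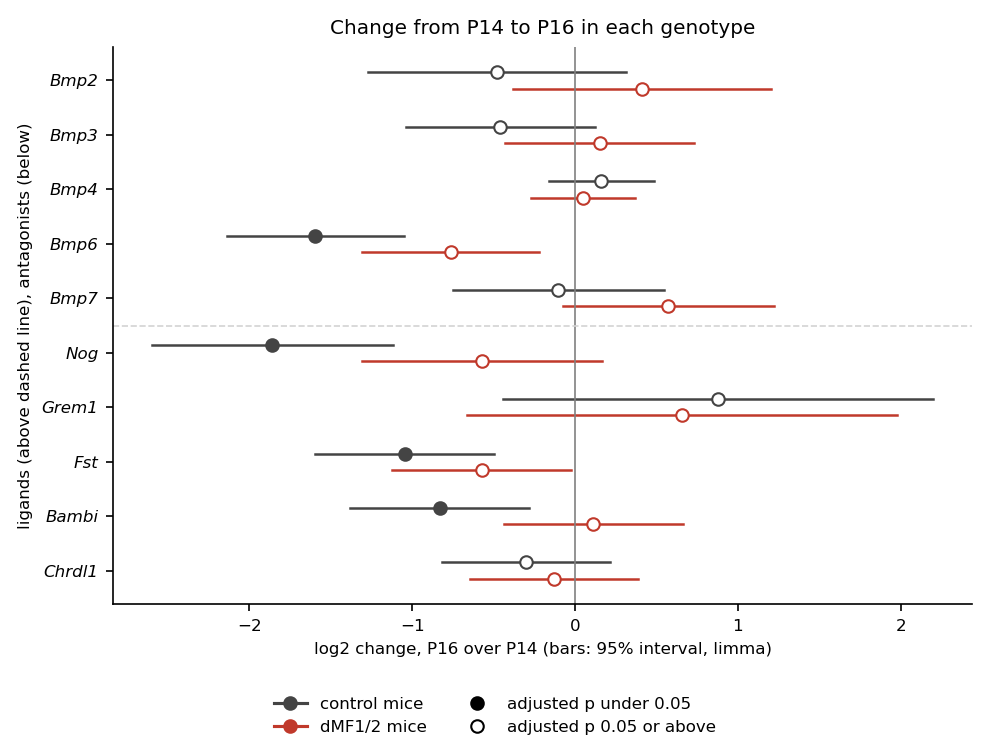
Log2 change from P14 to P16 of each member in control and in dMF1/2 mice, with the 95% interval from one limma fit of the 12 libraries; filled points passed an adjusted p of 0.05. The filled points are Bmp6, Nog, Fst and Bambi in control mice, between -1.86 and -0.83, and no point of the dMF1/2 mice is filled.

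Whether the change between days itself differed between the genotypes was tested as the interaction. By limma 0 of 13415 genes passed (0% of genes, 648 at an unadjusted p under 0.05, 7 by DESeq2 and 0 by edgeR), and 0 of the 10 members did by any of these tools. Nog (interaction 1.29, 95% interval 0.24 to 2.33), Bambi (0.94, 0.17 to 1.72) and Bmp6 (0.83, 0.062 to 1.60) had an unadjusted p under 0.05, of 0.0200, 0.0216 and 0.0365, with an adjusted p of 1.0 each. A positive value here means a smaller fall, or a larger rise, in dMF1/2 than in control mice. A difference between the genotypes in the change with time was not shown for any member.

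Side by side on the 12-library scale, the mean of the P16 dMF1/2 mice lay near that of P14 control mice for the 4 genes called at P16. Bmp6 had 1691 ± 457 and 1632 ± 495 rescaled reads (SD, n = 3), Nog 1212 ± 214 and 1406 ± 451, Fst 1461 ± 355 and 1216 ± 416, and Bambi 2964 ± 639 and 2565 ± 550.0, respectively, and the 2 groups overlapped for each. The groups lay apart for 3 other members, all lower in P16 dMF1/2 mice: Bmp3 had 3533 ± 646 against 10570.3 ± 968, Bmp2 1797 ± 479 against 2685 ± 549.8 and Chrdl1 689 ± 110.1 against 905 ± 49.1. Over all genes these groups lay apart for 31.9%, so that 3 of 10 members is near the share of all genes. These ratios are descriptions, since they share mice with the comparisons above.

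**Figure D4:**
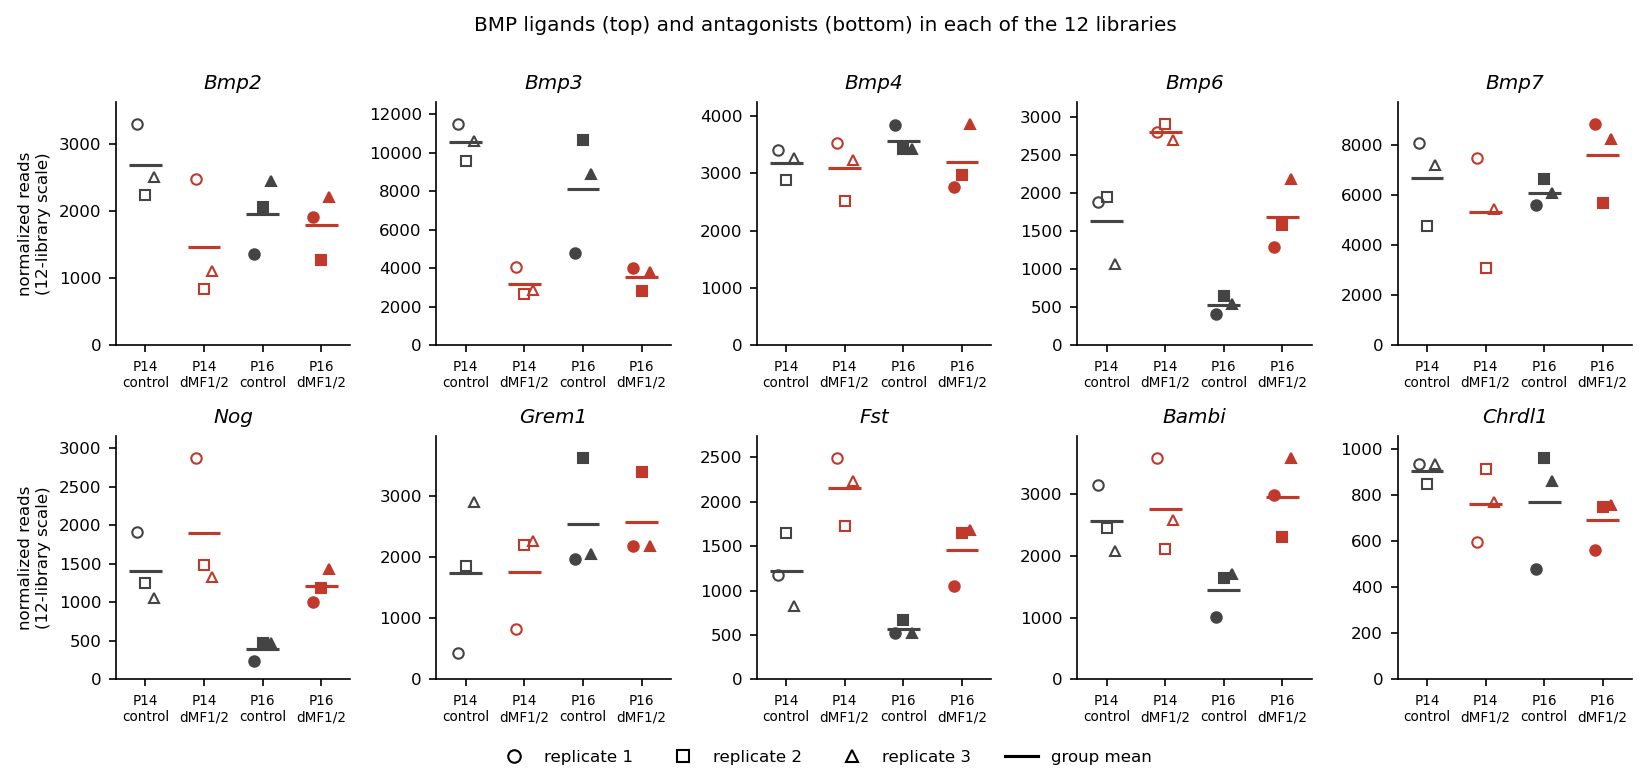
Normalized reads of each member in each of the 12 libraries on one common scale (linear axes from 0, 1 panel per gene), with the replicate number as the symbol and the group mean as a bar. Nog, Bmp6, Fst and Bambi are lowest in P16 control mice, Bmp3 is low in both dMF1/2 groups, and Bmp4 lies at similar levels in all 4 groups.

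Over the 12 libraries, on the log2 scale, the profile of Bmp6 was close to those of Fst (Pearson's r = 0.958) and Nog (0.930), and that of Nog to Bambi (0.905). Bmp2 went with Bmp3 (0.768) and Bmp7 (0.734), whereas Bmp3 and Fst were opposed (-0.557). The 12 points share the 4 groups and the 2 days, so these values describe the profiles and do not count as 12 independent samples. Among 12371 genes, those most like Bmp6 were Alpl (0.980), which is also one of the 14 DP markers, Dcc (0.971) and 5730409E04Rik (0.970). Those most like Nog were Nrg2 (0.983) and the R-spondins Rspo2 and Rspo1 (both 0.978). Smarca1 (0.976), Slc35f1 (0.975) and Naa35 (0.971) were closest to Fst, and Ptger1 (0.979), Katnal1 (0.978) and Itga9 (0.976) to Bambi. Net1 (0.976), Etv5 (0.949), a transcription factor induced by FGF signalling, and Slc26a7 (0.946) were closest to Bmp3.

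Of 94 other genes of the pathway in 7 lists (ligands, secreted antagonists, processing proteases, receptors, co-receptors, Smad transducers and target genes), 82 were in a table and 70 were tested. At P14 0 of 69 were called by limma, with 5 at an unadjusted p under 0.05, 2 called by DESeq2 and 0 by edgeR, against 0.0525% of all genes. At P16 5 of 70 were called, 3 higher and 2 lower in dMF1/2 mice, with a median log2 change of 0.030; over all genes 4.32% were called, so the share of the lists lay near that of all genes. The P16 count was 2 without dMF1/2 replicate 2 or without dMF1/2 replicate 3, 3 without control replicate 3 or without dMF1/2 replicate 1, and 13 with the replicate block, a fit that called 10.4% of all genes.

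Of the 3 that were higher, 2 were secreted antagonists and modulators, a list of which 15 were tested. Sostdc1, also known as ectodin or Wise, which binds BMPs and modulates Wnt signalling, rose from 3593 ± 2117 in control to 15651 ± 4443 normalized reads in dMF1/2 mice at P16 (log2 change 2.34, standard error 0.50, adjusted p = 0.0420 by limma). Ltbp1, which tethers latent TGF-beta in the matrix, was at 11822 ± 1384 and 20974 ± 3635 (log2 change 0.82, standard error 0.15, adjusted p = 0.0273). For both genes every dMF1/2 mouse was above every control.

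Among the other BMP, GDF and activin ligands, 1 of 9 was called. Inhbb, the subunit of activin B, had 2941 ± 725 normalized reads in P16 control and 866 ± 187 in dMF1/2 mice (log2 change -1.75, standard error 0.21, adjusted p = 0.00615 by limma). Between the days, Inhbb rose in control mice by 1.24 on the log2 scale (adjusted p = 0.0171 by limma), opposite to Fst, whose product binds activins. Inhba, another activin subunit gene of that list, went in the direction of Fst. Its log2 change was -1.23 between the days in control mice (adjusted p = 0.0525 by limma, called by DESeq2). At P16 it was 0.64 in dMF1/2 over control mice (adjusted p = 0.366 by limma). Eng, the co-receptor endoglin, was also lower at P16 (1 of 5 co-receptors), with 2092 ± 100.2 and 1341 ± 19.7 normalized reads and a log2 change of -0.64 (adjusted p = 0.00611). Eng is strongly expressed by endothelium, whose 8 markers had a median log2 change of -0.81 at P16 with 0 called by limma and edgeR (2 at an unadjusted p under 0.05, 2 by DESeq2) and summed to 4.67 to 12.6 in control and 5.80 to 8.45 in dMF1/2 mice. The part of endothelial cells in the Eng value was not tested.

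No receptor was called in either genotype comparison (0 of 10 by limma, edgeR and DESeq2, with 0 at an unadjusted p under 0.05 at P14 and 1 at P16). Bmpr2, the type II BMP receptor and the most abundant of the list in read number, had 7348 ± 184 normalized reads in P16 control and 7670.3 ± 236 in dMF1/2 mice, and the 95% interval of its log2 change was -0.12 to 0.25. No protease or convertase was called (0 of 7 by the same tools, with 0 and 3 unadjusted), and Bmp1, which cleaves chordin and procollagens, had a log2 change of -0.19 (-0.47 to 0.085) at P16. Of the 12 Smad transducers and regulators tested 1 was called, Zeb2, a Smad-binding transcription factor that was higher by a log2 change of 0.47 (95% interval 0.26 to 0.69, adjusted p = 0.0316 by limma).

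Target genes and inhibitory Smads, which are known to respond to BMP signalling, gave 0 of 12 calls on each day by limma, with 0 at P14 and 7 at P16 at an unadjusted p under 0.05, against 19.0% of all genes at P16. By edgeR 0 were called, and by DESeq2 0 at P14 and 4 at P16 (Id1, Smad6, Sp7 and Atoh8), against 8.33% of all genes at P16. Of the 7, Id1 was lower and 6 were higher in dMF1/2 mice. Id1, a direct Smad target, had 557 ± 88.2 normalized reads in P16 control and 325 ± 80.9 in dMF1/2 mice (log2 change -0.80, adjusted p = 0.0690), while Id3, the most abundant of the list, had 3036 ± 283 and 3933 ± 891 (0.35, adjusted p = 0.262) and the inhibitory Smad6 588 ± 140 and 976 ± 192 (0.74, adjusted p = 0.0897). The list's median log2 change was 0.37.

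**Figure D5:**
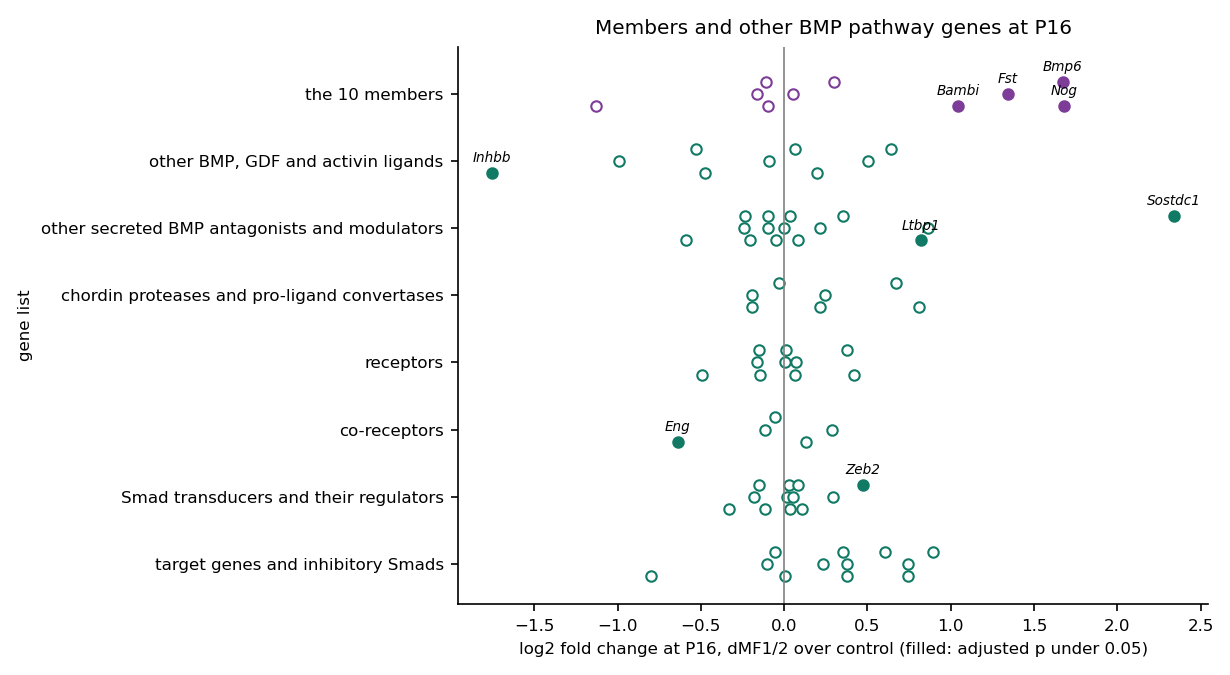
Log2 fold change at P16, dMF1/2 over control, of the 10 members (top row) and of the tested genes of the 7 other pathway lists; each point is a gene and filled, named points passed an adjusted p of 0.05. Called genes are 4 of the 10 members, 1 other ligand, 2 other antagonists or modulators, 1 co-receptor and 1 Smad regulator, and none among proteases, receptors or target genes.

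Between the days, 14 of 69 other pathway genes changed in control mice, 6 up and 8 down, and 2 of 69 in dMF1/2 mice (4 of 69 with the replicate block). Over all genes 14.5% and 5.80% changed, so that more genes changed in control than in dMF1/2 mice across all genes as well. The receptors Bmpr2, Bmpr1a and Acvr2a rose in control mice by log2 changes of 0.33, 0.33 and 0.49, and Bmpr2 also rose in dMF1/2 mice by 0.36 (limma's adjusted p = 0.0361). Sostdc1 fell in control mice by a log2 change of -1.5 (adjusted p = 0.0412), along with the modulators Kcp and Smoc1, the proteases Furin, Pcsk5 and Tll1 and the target genes Msx2 and Atoh8. These control calls rest on few mice: without P14 control replicate 1 or 2, 0 of 69 were called, without P16 control replicate 1 it was 1 of 69, and without both P14 replicate 1 libraries 1 of 69. The dMF1/2 calls, Bmpr2 included, were lost in 8 of the 12 fits without 1 library, 4 of which left out a dMF1/2 mouse (P14 replicate 2 or 3, P16 replicate 1 or 2) and 4 a control mouse (P14 replicate 2, or any at P16) that enters through the shared fit only, and in a fit of the dMF1/2 libraries alone.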

How the data were processed

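DP cells of 12 mice were profiled after ribosomal RNA depletion with a directional kit and 61-base single reads. Trimming (Trimmomatic), mapping to mm10 (Tophat 2), counting over Ensembl genes of GRCm38.p4 (HTSeq-count) and scaling (DESeq2) were done by the authors. The deposited signal values are reads divided by size factors over the 6 libraries of a day. Every value was a whole multiple of 1 constant per library (100% within a tolerance of 0.001), so that whole reads were recovered. The authors' fold changes, test statistics and p-values in the same tables were not used.

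The members and lists were chosen with earlier results of these data known. Genotypes were compared within a day by limma 3.58.1 (R 4.3.3, mean-variance trend) on log2(value + 1) for genes averaging 10 or more normalized reads, with Benjamini-Hochberg adjustment over all genes and a threshold of 0.05; a log2(value + 1) scale slightly understates the change of low genes. Days and their interaction were taken from one fit of 12 libraries on the reads of 14986 shared genes rescaled by median of ratios. The plan had named edgeR for raw counts. Levels per length used exon lengths of GENCODE M21, whose gene spans differ from those of the tables for Bmp6, Fst and Bambi. Exact two-sided permutation tests of 3 against 3 cannot give a p under 0.1. Each label number is a mouse.

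Libraries of the same number deviated together within a day (correlations of 0.586, 0.389 and 0.304 at P14, and 0.256, 0.293 and 0.311 at P16), so the replicate number was tried as a block. Across days they did not pair (-0.0545, -0.0621 and -0.130 in control, 0.0292, 0.208 and -0.162 in dMF1/2). Alternatives were edgeR 4.0.16, DESeq2 1.42.0, TMM and upper-quartile scaling, pseudocounts of 0.1 and 10, no filter, at least 10 reads in every library, joint or separate fits, and each library left out; leaving out both P14 replicate 1 libraries was added after seeing the data. Scripts were tested on simulated data. Pathway genes are named if called between genotypes (at most 4 per list), else the gene with the highest mean. Id1, Smad6, Inhba and further day calls were named after their values were seen. For each called member the 3 genes with the closest profile are given. Results for 1 pathway gene are not reported here, and it was left out of its list.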

Additional observations from a re-analysis of the deposited data

How the results depend on the processing

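Of the 5 counts of called members, that at P14 (1) was 0 by edgeR, 3 with the replicate block and 0 to 1 when 1 library was left out. That at P16 (4) was 1 to 4 with 1 library left out, with 2 called without control replicate 3 and 1 without dMF1/2 replicate 3. That between the days in control mice (4) was 2 in a fit of the control libraries alone, 2 without both P14 replicate 1 libraries and 2 to 4 with 1 library left out, with 2 called without P14 control replicates 1 or 2 or P16 control replicates 1 or 3. That in dMF1/2 mice (0) was 1 by DESeq2 and 0 to 1 with 1 library left out, and the interaction count stayed at 0 in all fits run. Apart from Bmp2 and Bmp6 at P14 and Bambi between the days in control mice, the replicate block changed no call of a member. Over all genes the P14 count (7) was 2 by edgeR, 207 by DESeq2, 224 with the block, 11 in the joint fit and 0 to 18 with 1 library left out; the P16 count (582) was 1121 by DESeq2, 1403 with the block and 149 to 684. The control count between days (1951) was 806 in its own fit, 951 without both P14 replicate 1 libraries and 693 to 2129, and the dMF1/2 count (778) was 1335, by DESeq2, 322 in its own fit and 257 to 861. The interaction count (0) was 7 by DESeq2, 2 without both P14 replicate 1 libraries and 0 to 2 with 1 library left out. Pathway counts at P14 (0) were 2 by DESeq2, at P16 (5) 11 by DESeq2, 13 with the block and 2 to 5, in control mice (14) 2 alone and 0 to 16, and in dMF1/2 mice (2) 6 by DESeq2, 4 with the block, 0 alone and 0 to 2. No scaling, pseudocount or filter turned the sign of a member. With 1 library left out, log2 changes that were not called crossed 0 for Bmp4 (-0.15 to 0.089), Grem1 (-0.53 to 0.84) and Bambi (-0.11 to 0.27) at P14, for Bmp2 (-0.35 to 0.12), Grem1 (-0.16 to 0.34) and Chrdl1 (-0.41 to 0.095) at P16, for Bmp7 (-0.33 to 0.053) and Chrdl1 (-0.49 to 0.0082) between the days in control, for Bmp4 (-0.094 to 0.15), Bambi (-0.061 to 0.32) and Chrdl1 (-0.29 to 0.011) in dMF1/2 mice, and for Grem1 (-0.79 to 0.58) and Chrdl1 (-0.14 to 0.36) in the interaction. Without both P14 replicate 1 libraries the sign turned for Grem1 at P14 (-0.056), Bmp7 in control (0.053), and Grem1 (0.11) and Chrdl1 (-0.018) in the interaction. The causes were not tested. With at least 275 reads per member and library, depth was sufficient to test every member, and with 3 mice a group the 95% intervals at P14 were widest for Grem1, Bmp2, Bmp7 and Nog.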
